A study of Mus musculus with 9 samples.

Results

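Transcripts of 9 genes that build laminin and the basement membrane around it were followed in D2.0R cells: the laminin chains Lama1, Lama3, Lama5, Lamb1, Lamb2, Lamb3 and Lamc1, the linker nidogen (Nid1) and the proteoglycan perlecan (Hspg2). The genes were taken by symbol from the 23309 genes in the deposited files, and 7 of the 9 passed the filter for testing. The line comes from mouse mammary tumours. It is quiescent on a basement membrane extract (BME, sold as Cultrex) and grows when the matrix also holds fibrillar collagen (COL1). The groups were BME day 1, BME day 5 and BME + COL1 day 5, each with 3 cultures labelled as replicates a, b and c, and all were kept in low-glucose DMEM with little serum and with BME in the medium as well as on the surface. There was no BME + COL1 culture at day 1, so matrix and time cannot be told apart between BME + COL1 day 5 and BME day 1.

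Laminins are cross-shaped proteins of 1 alpha, 1 beta and 1 gamma chain, joined by a coiled coil before secretion and named by the numbers of their chains, abbreviated LM, so that LM511 is the laminin of alpha 5, beta 1 and gamma 1. LM111 is the main form in the extract from the Engelbreth-Holm-Swarm tumour, LM332 anchors epithelia through the integrins alpha 3 beta 1 and alpha 6 beta 4, and LM511 and LM521 are the widespread forms of adult epithelia. Nidogen bridges laminin and type IV collagen, and perlecan carries heparan sulphate and binds both. The question put to the data is which trimers the cells could make themselves on each matrix. RNA only was measured, so the values below say which chains were transcribed and not which trimers were assembled or secreted.

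Values are FPKM, fragment counts divided by transcript length and library size, deposited by the authors from Cufflinks on the RefSeq transcripts of mm9. They are per length, so levels can be set side by side between genes. Each of the 9 genes was represented by 1 transcript. Aligned sequence came to 7.21 to 9.37 gigabases a library, at which the 95% interval of Cufflinks reached 1.34% to 7.91% to either side of the value for the 7 tested genes. The log2 of FPKM + 0.1 was compared between group means with limma over 10497 genes that averaged 1 FPKM or more, and a gene was called higher or lower at an adjusted p (Benjamini-Hochberg) under 0.05. Replicate b of BME day 5 stood apart, since its median gene lay -0.27 from the mean of the 9 libraries on the log2 scale. Of 8 luminal epithelial markers, Krt8, Krt18 and Cdh1 were above 1 FPKM in every library and Epcam in only 2 (BME day 1 replicates a and b, at 1.41 and 1.59), and all 8 endothelial markers were under 1 FPKM in every library. Of 8 fibroblast markers, 4 exceeded 1 FPKM in some library (Col1a1, Pdgfra, Pdgfrb and Postn), and their list summed to 23.6 to 31.6 FPKM on BME day 1, 50.7 to 62.4 on BME day 5 and 4.61 to 4.86 on BME + COL1 day 5. The sum of the luminal list ran the other way, with 1436 to 1595, 774.7 to 1150 and 2337 to 2444 FPKM. Krt8 and Krt18 made up most of this sum, and not every gene of the lists followed the sums. Cdh1, with means of 34.25, 16.43 and 31.13 FPKM, was not called between BME + COL1 day 5 and BME day 1. Cldn4 was lowest with COL1 (means of 0.376, 0.078 and 0.016), and the fibroblast marker Col1a2 was highest there (0.049, 0.035 and 0.105). The part of these lists in the results below was not tested, and in bulk RNA fewer cells of a type and less RNA per cell cannot be told apart.

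Many genes changed in these cultures, so calls among the laminin genes were read against all tested genes. Between BME day 5 and BME + COL1 day 5, 75.6% of all tested genes were called, 30.3% higher and 45.3% lower, and of the 7 laminin genes tested 2 were higher and 2 lower. Between BME day 5 and BME day 1, 31.3% of all genes were called, 9.09% higher and 22.2% lower, and again 2 of the 7 were higher and 2 lower. Between BME + COL1 day 5 and BME day 1, 66% of all genes were called, 34.2% higher and 31.8% lower, and of the 7 laminin genes 1 was higher and 3 were lower. In each comparison 4 of the 7 were called, and between the BME days 1 of the 4 was the narrow call of Lamb3. A set of 7 genes is too small to set its share apart from that among all genes. The median log2 difference of the 7 was -0.04, -0.15 and -0.22 in the 3 comparisons, against -0.18, -0.15 and 0.03 for all tested genes. The direction of small differences depended on the scaling: after rescaling to TPM the median of all genes moved to 0.16, -0.04 and -0.19, and the share of calls that were higher moved from 40.1% to 59.4%, from 29.1% to 40.7% and from 51.8% to 35.1%.

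The alpha chain gives a laminin its receptor binding, and Lama5 was the main alpha chain gene on every matrix. Lama5 lies at chr2:179911078-179960564 on the minus strand. It had 37.3, 37.8 and 36.7 FPKM on BME day 1, 38.7, 28.9 and 34.0 on BME day 5, and 37.0, 38.4 and 35.2 on BME + COL1 day 5. The 3 groups overlapped, and the lowest culture was replicate b of BME day 5. The log2 difference between BME day 5 and BME + COL1 day 5 was -0.13 ± 0.10 (SE, n = 3 and 3, limma adjusted p = 0.274), with a 95% interval of -0.36 to 0.10. After rescaling to TPM the sign turned and the gene was called higher on BME day 5 (0.22, limma adjusted p = 0.00782), and without replicate a of BME day 5 it was called lower (-0.23, limma adjusted p = 0.0396). Against BME day 1 the log2 differences were -0.15 on BME day 5 and -0.02 on BME + COL1 day 5, neither called on the deposited scale, and on the TPM scale the second was called lower (-0.24, limma adjusted p = 0.00467).

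Lama3, the alpha chain of the epithelial LM332, was lower on BME at day 5 than in both other groups. The gene lies on the plus strand at chr18:12492533-12741521. It had 4.83, 5.44 and 6.28 FPKM on BME day 1, 2.47, 1.14 and 1.63 on BME day 5, and 4.88, 5.02 and 4.21 on BME + COL1 day 5. Every BME day 5 culture lay below every culture of the other groups, which overlapped each other. The log2 difference was -1.66 ± 0.23 (SE) from BME day 1 (limma adjusted p = 0.00154) and -1.44 ± 0.23 from BME + COL1 day 5 (limma adjusted p = 0.000289). Between BME + COL1 day 5 and BME day 1 it was -0.22 with a 95% interval of -0.73 to 0.29 (limma adjusted p = 0.408).

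Lama1, the alpha chain of LM111, was listed at 0 in 7 of the 9 libraries. The 2 libraries above 0 were replicates a and b of BME day 5, with 0.00408 and 0.00191 FPKM, and the upper bound of the Cufflinks interval was at most 0.00987 FPKM in any library. None of 12 widely expressed genes checked was listed at 0, the lowest being Tbp at 8.03 FPKM, which says nothing of weakly expressed genes. Low values were common in these files, since 10497 of 23309 genes averaged 1 FPKM or more. Of the alpha chains outside the named genes, Lama2 reached at most 0.038 FPKM. Lama4, the alpha chain of the vascular and mesenchymal LM411, had 1.72, 2.09 and 1.40 FPKM on BME day 1, 1.68, 0.868 and 0.678 on BME day 5, and 7.07, 7.37 and 6.60 on BME + COL1 day 5. BME day 5 minus BME + COL1 day 5 gave a log2 difference of -2.69 ± 0.27 (SE, limma adjusted p = 1.67e-05), and BME + COL1 day 5 minus BME day 1 gave 1.97 (limma adjusted p = 0.000188), so all cultures with COL1 lay above all others.

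**Figure D1:**
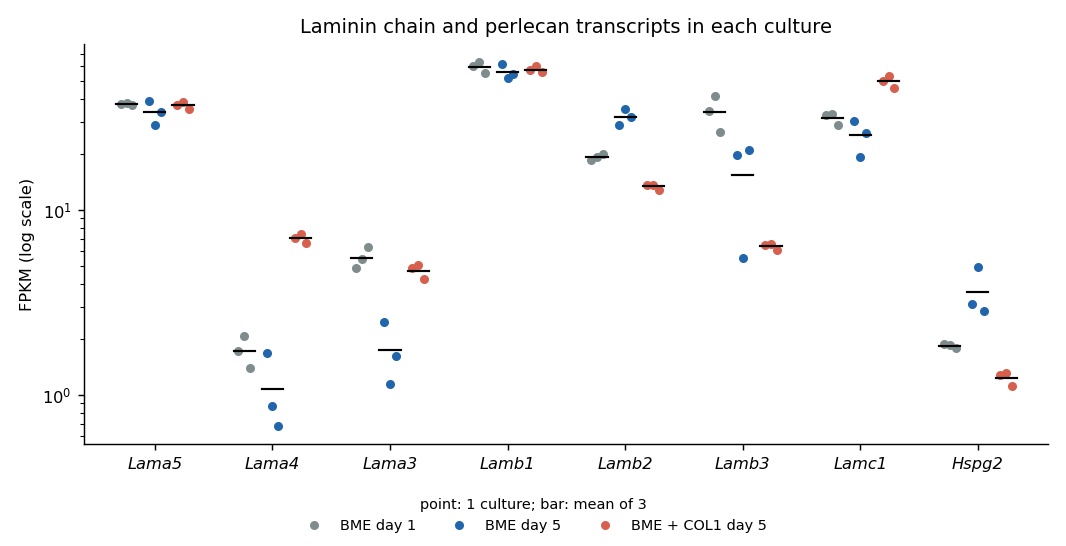
FPKM on a log axis for the 7 tested members and for Lama4, with 1 point for each of the 9 cultures and a bar at each group mean. Lama5 and Lamb1 overlapped across the 3 groups, Lamb2 and Hspg2 were highest on BME day 5, and Lama4 and Lamc1 were highest on BME + COL1 day 5. Lama1 and Nid1, at 0.010 FPKM or less, are not drawn.

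Among the beta chains, Lamb1 was the most abundant laminin chain in every culture. Lamb1 lies at chr12:31950159-32014504 on the plus strand. It had 60.0, 62.9 and 54.6 FPKM on BME day 1, 61.2, 51.9 and 54.5 on BME day 5, and 57.0, 59.6 and 55.5 on BME + COL1 day 5. The groups overlapped, and the log2 difference between BME day 5 and BME + COL1 day 5 was -0.04 with a 95% interval of -0.24 to 0.16 (limma adjusted p = 0.692). As with Lama5, its sign turned on the TPM scale, where it was called higher on BME day 5 (0.31, limma adjusted p = 0.00594). Against BME day 1 the log2 differences were -0.08 on BME day 5 and -0.04 on BME + COL1 day 5, and on the TPM scale they were 0.04, not called, and -0.27, called lower (limma adjusted p = 0.013).

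Lamb2, the beta chain of LM521 and of synaptic and kidney laminins, ordered the 3 groups without overlap. It lies at chr9:108382193-108392861 on the plus strand. It had 18.6, 19.2 and 20.0 FPKM on BME day 1, 28.7, 35.1 and 31.9 on BME day 5, and 13.7, 13.7 and 12.9 on BME + COL1 day 5. Its level thus rose from day 1 to day 5 on BME and was lowest with COL1. BME day 5 was 2.36-fold above BME + COL1 day 5 on the log2(FPKM + 0.1) scale (log2 1.24 ± 0.08 SE, limma adjusted p = 1.71e-06) and 1.64-fold above BME day 1 (log2 0.72, limma adjusted p = 0.000743). BME + COL1 day 5 was below BME day 1 by a log2 difference of -0.52 (limma adjusted p = 0.000509). All 3 calls held under each alternative scaling, filter and left-out library tried.

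Lamb3, the beta chain found in LM332, was highest on BME day 1. It lies at chr1:195128188-195170072 on the plus strand. It had 34.1, 41.4 and 26.3 FPKM on BME day 1, 19.9, 5.50 and 21.0 on BME day 5, and 6.48, 6.56 and 6.07 on BME + COL1 day 5. Replicate b of BME day 5 lay with the BME + COL1 cultures, and replicates a and c lay between the other groups. The fall from BME day 1 to BME + COL1 day 5 was a log2 difference of -2.37 ± 0.43 (SE, limma adjusted p = 0.00105). The fall from BME day 1 to BME day 5 passed narrowly (-1.33, limma adjusted p = 0.0443) and was lost without any 1 of the BME day 1 or BME + COL1 libraries (limma adjusted p from 0.0678 to 0.134). Without replicate b of BME day 5 it stayed called but shrank to -0.70 (limma adjusted p = 0.0096). BME day 5 and BME + COL1 day 5 differed by 1.04 ± 0.43, which did not pass (limma adjusted p = 0.0504), but without replicate b of BME day 5 the difference was 1.67 ± 0.16 (limma adjusted p = 1.27e-05). It was also called higher on BME day 5 with TPM, median-ratio and quantile scaling (limma adjusted p = 0.007, 0.0268 and 0.0332). A pseudocount of 0.01 and a minimum mean of 5 FPKM gave narrow calls (limma adjusted p = 0.0497 and 0.0479). The other settings gave no call.

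Lamc1, the gamma chain of most laminins, was lower on BME day 5 than with COL1. It lies at chr1:155066052-155179916 on the minus strand. It had 32.5, 33.1 and 28.7 FPKM on BME day 1, 30.3, 19.3 and 26.2 on BME day 5, and 49.7, 53.1 and 45.7 on BME + COL1 day 5. All 3 cultures with COL1 lay above all others, and the BME groups overlapped. The log2 difference between BME day 5 and BME + COL1 day 5 was -0.99 ± 0.15 (SE, limma adjusted p = 0.000239), and that between BME + COL1 day 5 and BME day 1 was 0.65 (limma adjusted p = 0.00395). Between the BME days it was -0.34 (limma adjusted p = 0.111), and without replicate a of BME day 5 it was called (-0.48, limma adjusted p = 0.0284). Lamc3, a gamma chain gene of few tissues, reached at most 0.023 FPKM.

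**Figure D2:**
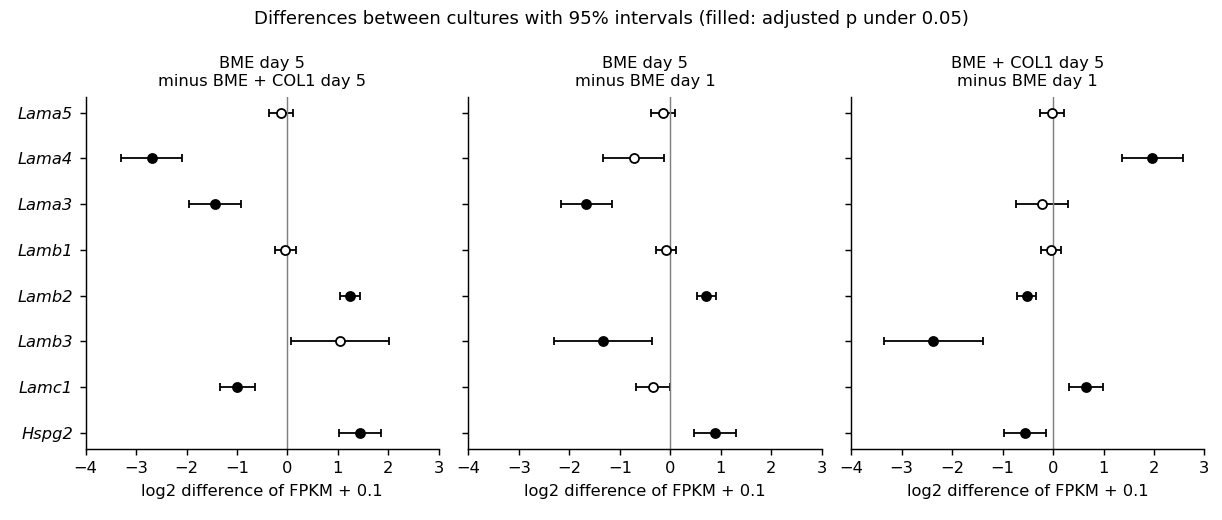
Log2 differences of FPKM + 0.1 for 8 genes in the 3 comparisons, with 95% intervals from limma and filled points where the adjusted p was under 0.05. Lama3 was called lower on BME day 5 in both comparisons that include it, Lamb2 and Hspg2 were called higher in both, and Lama5 and Lamb1 were near 0 on the deposited scale, though on the TPM scale both were called higher on BME day 5 than with COL1.

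The linkers of the network differed from each other. Nidogen 1 RNA was near absent, with at most 0.00976 FPKM in any library, 0 in 2 libraries with COL1, and an upper interval bound of 0.021 FPKM. Nid1 lies at chr13:13529869-13604542 on the plus strand. Its relative Nid2 reached at most 0.122 FPKM. Lama1 and Nid1, which encode components of the extract itself, were thus both at or near 0 in the RNA of the cells recovered from it. Genes of other components were transcribed. Lamb1 and Lamc1, for the other chains of LM111, had 51.9 to 62.9 and 19.3 to 53.1 FPKM over the libraries, and Hspg2 had 1.12 to 4.93. The type IV collagen genes Col4a1 and Col4a2, which encode the network that nidogen links to laminin, stayed at or under 0.338 FPKM in every library. Col4a3, Col4a4 and Col4a6 also stayed low, at or under 0.181 FPKM in every library. Only Col4a5 among the type IV collagen genes was higher. Col4a5 had 42.2 to 46.8 FPKM on BME day 1, 38.8 to 48.9 on BME day 5 and 18.4 to 20.6 on BME + COL1 day 5. It was called higher on BME day 5 than with COL1 (log2 1.11, limma adjusted p = 9.18e-06).

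Perlecan RNA was present at a low level and followed the order of Lamb2. Hspg2 lies at chr4:137024718-137126545 on the plus strand. It had 1.89, 1.86 and 1.80 FPKM on BME day 1, 3.09, 4.93 and 2.83 on BME day 5, and 1.27, 1.31 and 1.12 on BME + COL1 day 5. The groups did not overlap, and the highest culture was replicate b of BME day 5. BME day 5 was 2.71-fold above BME + COL1 day 5 (log2 1.44 ± 0.19 SE, limma adjusted p = 8.21e-05) and 1.85-fold above BME day 1 (log2 0.89, limma adjusted p = 0.00938). BME + COL1 day 5 was below BME day 1 by a log2 difference of -0.55 (limma adjusted p = 0.0255). This last call was lost when any 1 of 5 libraries was left out, among them replicate c of BME + COL1 day 5 (-0.49, limma adjusted p = 0.0846), and after quantile normalization (-0.21, limma adjusted p = 0.481). Agrin (Agrn), another heparan sulphate proteoglycan that binds laminin, was far more abundant, at 31.2, 31.1 and 38.4, then 39.9, 28.5 and 38.0, then 24.3, 25.2 and 22.6 FPKM. It was higher on BME day 5 than with COL1 (log2 0.55, limma adjusted p = 0.00488).

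A trimer needs all 3 of its chains, so the least abundant of the 3 transcripts was taken in each culture as the level that limits it. For LM111 and LM121 this chain was Lama1, at 0 to 0.00408 FPKM. For LM511 it was 31.4 ± 2.39 FPKM (SD, n = 3) on BME day 1, 25.3 ± 5.57 on BME day 5 and 36.8 ± 1.59 on BME + COL1 day 5. The chain that set this level was Lamc1 in every BME culture and Lama5 in every culture with COL1, where the ratio of Lamc1 to Lama5 was 1.34 ± 0.04 (SD, n = 3) against 0.842 ± 0.053 on BME day 1 and 0.740 ± 0.064 on BME day 5. For LM521 the level was 19.3 ± 0.72, 24.7 ± 4.88 and 13.4 ± 0.46 FPKM. Lamb2 set it in all cultures except replicates b and c of BME day 5, where Lamc1 did. All these levels are on the deposited scale, and no other scaling was tried for them. On the TPM scale Lama5, which set the LM511 level with COL1, was called lower there than on BME day 1. The order of the groups for LM511 was thus not shown to hold on that scale.

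For LM311 and LM321, which need Lama3, that gene was the limit in every culture, at 5.51 ± 0.73 FPKM (SD, n = 3) on BME day 1, 1.75 ± 0.67 on BME day 5 and 4.70 ± 0.43 on BME + COL1 day 5. The epithelial LM332 needs Lama3 and Lamb3 together, and on the deposited scale Lama3 was the lower of these 2 in every culture. The ratio of Lama3 to Lamb3 was 0.171 ± 0.059 on BME day 1, 0.136 ± 0.066 on BME day 5 and 0.737 ± 0.038 with COL1, where the Lamb3 level was lowest. The deposited Lama3 transcript is the long form of 10342 nt, and the GENCODE annotation also holds a coding form of 5483 nt that starts inside the gene. If every read came from that form, Lama3 would be understated by up to 1.89-fold. The limit of LM311 would then stand at 10.4, 3.29 and 8.87 FPKM, still set by Lama3 in every culture, and BME day 5 would stay the lowest group. The ratio of Lama3 to Lamb3 would become 0.322 ± 0.11, 0.257 ± 0.12 and 1.39 ± 0.072, so that Lamb3 and not Lama3 would be the lower of the pair in all 3 cultures with COL1. For LM411, whose limit was Lama4 throughout, the levels were 1.74 ± 0.34, 1.07 ± 0.53 and 7.01 ± 0.39 FPKM. For LM211 the limit was Lama2, at 0.038 FPKM or less.

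In each culture, then, the limit of LM511 was above those of LM411 and LM311. On BME day 5 the limits of LM511 and LM521 were the same value in replicates b and c, where Lamc1 set both, and stood at 30.3 and 28.7 FPKM in replicate a. The trimers share Lama5 and Lamc1, so their limits are not separate, and they were not tested against each other. With COL1 every culture had a higher limit for LM511 than for LM521. Exact two-sided permutation tests of 3 cultures against 3 cannot give a p under 0.1. The 30 exact tests of trimer limits and chain shares gave p = 0.1 at the lowest, which is 0.136 after Benjamini-Hochberg adjustment over them. None could pass with groups of this size, so no conclusion is drawn from them.

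**Figure D3:**
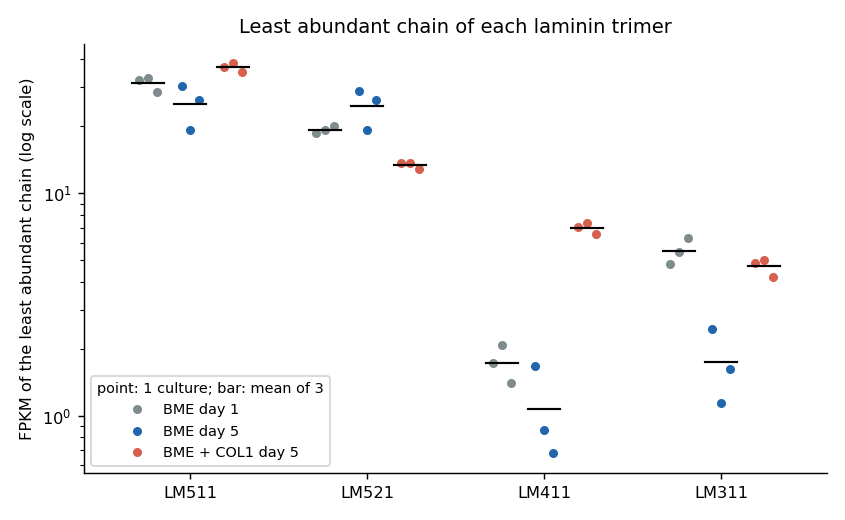
FPKM of the least abundant of the 3 chains of LM511, LM521, LM411 and LM311 on a log axis, with 1 point for each culture and a bar at each group mean. The limit of LM311 was lowest on BME day 5, at 1.14 to 2.47 FPKM, and that of LM411 was highest with COL1, at 6.60 to 7.37 FPKM.

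The shares of chains within the alpha and beta classes are described by group, since no exact test of them could pass. The mean shares differed between the BME days as well as between matrices. Lama5 held 83.7% ± 1.2 (SD, n = 3) of alpha chain FPKM on BME day 1, 92.4% ± 1.9 on BME day 5 and 75.9% ± 0.54 with COL1. Rescaled to the short form of Lama3, the Lama5 share would be 75.4%, 88.8% and 69.9%, in the same order. Lama3 held 12.4%, 4.64% and 9.67%, and Lama4 held 3.90%, 2.86% and 14.4%. Lama5 itself differed little on the deposited scale, and its share was highest where Lama3 and Lama4 had their lowest means.

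In the beta class, Lamb1 held 52.8%, 54.2% and 74.4%, Lamb2 held 17.3%, 31.3% and 17.4%, and Lamb3 held 29.9%, 14.6% and 8.26% in the same order of groups. The Lamb2 share was thus near equal on BME day 1 and with COL1, although the Lamb2 level was lower with COL1, because the summed beta chain FPKM was 112.4 ± 11.3 on BME day 1 and 77.1 ± 2.7 with COL1.

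**Figure D4:**
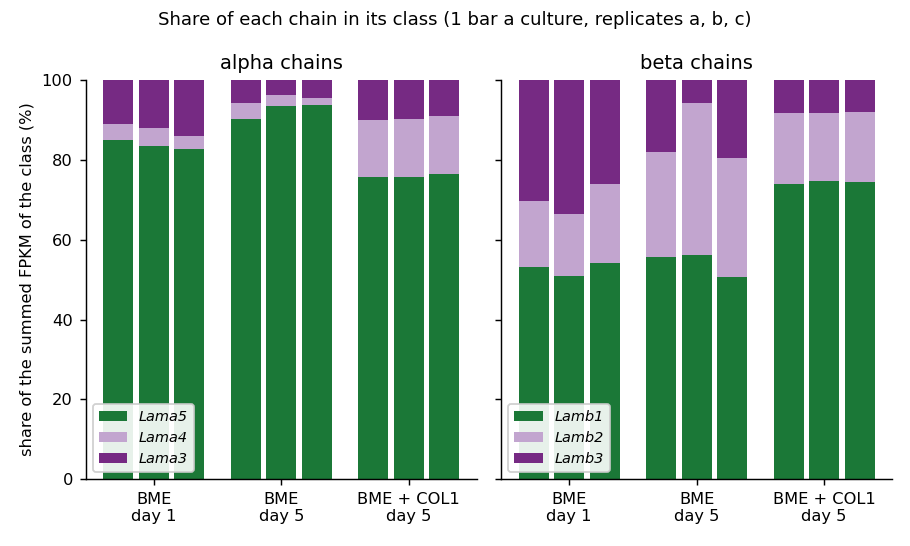
Share in percent of each chain in the summed FPKM of its class (alpha or beta), with 1 bar for each of the 9 cultures in the order of replicates a, b and c. Lama5 held its largest share on BME day 5, at 90.2% to 93.6%, and Lamb1 held its largest with COL1, at 73.9% to 74.6%.

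The pattern over cultures was shared by some chains. Over the 9 libraries, which hold only 3 groups, log2 values of Lamb2 and Hspg2 had a Pearson r of 0.97, while Lamb2 had -0.92 with Lamc1. Lamb3 followed none of the other chains closely, with r between -0.51 and 0.50. Among tested genes that averaged 5 FPKM or more, those most like Lamb2 were 2210404J11Rik, Tgfb3 and H3f3b (r of 0.998, 0.997 and 0.996), and those most like Lamc1 were Axin1, Farp1 and Cad (0.997, 0.995 and 0.995). Hspg2 was closest to Tgif1, 0610007N19Rik and 9030025P20Rik (0.986, 0.981 and 0.978), Lama3 to Amotl1, Trib1 and Senp5 (0.992, 0.990 and 0.989), and Lamb3 to Angptl2, Calu and Cog6 (0.988, 0.983 and 0.982). Lama5 was closest to Dym, Klhdc10 and Dock1 (0.980, 0.974 and 0.967) and Lamb1 to Lrba, Huwe1 and Pbrm1 (0.962, 0.948 and 0.916). The 9 points fall into 3 groups, so these values are a description of the order of the cultures.

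The 250 bases before the transcript start are shown for Lamb2 and Hspg2, which moved together over the cultures but differ in these windows. Both are from mm9, 5′ to 3′ on the plus strand, which is the strand of both genes, with GC boxes (GGGCGG on either strand) in capitals. The windows are chr9:108381943-108382192 for Lamb2 and chr4:137024468-137024717 for Hspg2.
Lamb2: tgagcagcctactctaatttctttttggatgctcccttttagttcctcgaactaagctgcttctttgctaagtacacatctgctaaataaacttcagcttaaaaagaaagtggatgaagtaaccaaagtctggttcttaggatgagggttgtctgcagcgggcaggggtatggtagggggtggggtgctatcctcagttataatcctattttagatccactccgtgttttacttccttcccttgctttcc
Hspg2: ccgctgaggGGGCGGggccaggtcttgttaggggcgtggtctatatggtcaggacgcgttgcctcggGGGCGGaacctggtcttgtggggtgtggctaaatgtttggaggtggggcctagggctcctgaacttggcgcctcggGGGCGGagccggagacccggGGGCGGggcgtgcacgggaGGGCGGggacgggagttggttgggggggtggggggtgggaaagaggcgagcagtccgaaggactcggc
Hspg2 had 5 GC boxes, while Lamb2 had none. A GC box was present in 42.1% of the 25834 windows of this length before the transcript starts in the files. The G and C content was 70% before Hspg2 and 43.6% before Lamb2. The AP-1 motif TGACTCA and the E-box CACGTG, searched on both strands, were in no window of the 9 genes, against 4.08% and 6.59% of all windows. These letters are a description of the windows only.

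Other components around laminin were counted in lists, to be read against all tested genes, of which 30.3% were higher and 45.3% lower between BME day 5 and BME + COL1 day 5, 9.09% and 22.2% between the BME days, and 34.2% and 31.8% between BME + COL1 day 5 and BME day 1, with medians of -0.18, -0.15 and 0.03. Of 25 further basement membrane genes, 11 were tested. Between BME day 5 and BME + COL1 day 5, 6 of these were higher and 3 lower. The largest rises were in the calcium-binding proteins Smoc2 (log2 6.23) and Smoc1 (2.99), and the largest falls in the integrin ligand nephronectin (Npnt, -1.27) and in Tinagl1 (-0.50). Between the BME days 1 was higher (Smoc2, 1.36) and 4 were lower, led by Col18a1 (-0.83) and Tinagl1 (-0.65), and between BME + COL1 day 5 and BME day 1 there were 3 higher, led by Npnt (0.78) and Sparc (0.39), and 7 lower, led by Smoc2 (-4.87) and Smoc1 (-2.94). The median of the list was 0.31, 0.04 and -0.69 in the 3 comparisons.

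Of 12 laminin receptor genes 11 were tested, and between BME day 5 and BME + COL1 day 5 there were 5 higher and 3 lower. The integrin chains moved apart: Itga3 and Itga6, the alpha chains of the integrins that bind LM332 and LM511, were lower on BME day 5 (log2 -1.80 and -1.23), and Itgb4, the hemidesmosome partner of alpha 6, was higher (1.18), as was the alpha 5 chain receptor Bcam (1.37). Between the BME days 2 were higher (Bcam, 0.69, and Dag1, 0.23) and 4 lower, led by Itga3 (-0.87) and Rpsa (-0.77), a ribosomal protein gene with many near-identical copies whose value is uncertain. Between BME + COL1 day 5 and BME day 1, 2 were higher (Itga3, 0.92, and Itga6, 0.55) and 6 lower, led by Itgb4 (-1.37) and Sdc1 (-1.24). The medians were -0.04, -0.20 and -0.26.

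**Figure D5:**
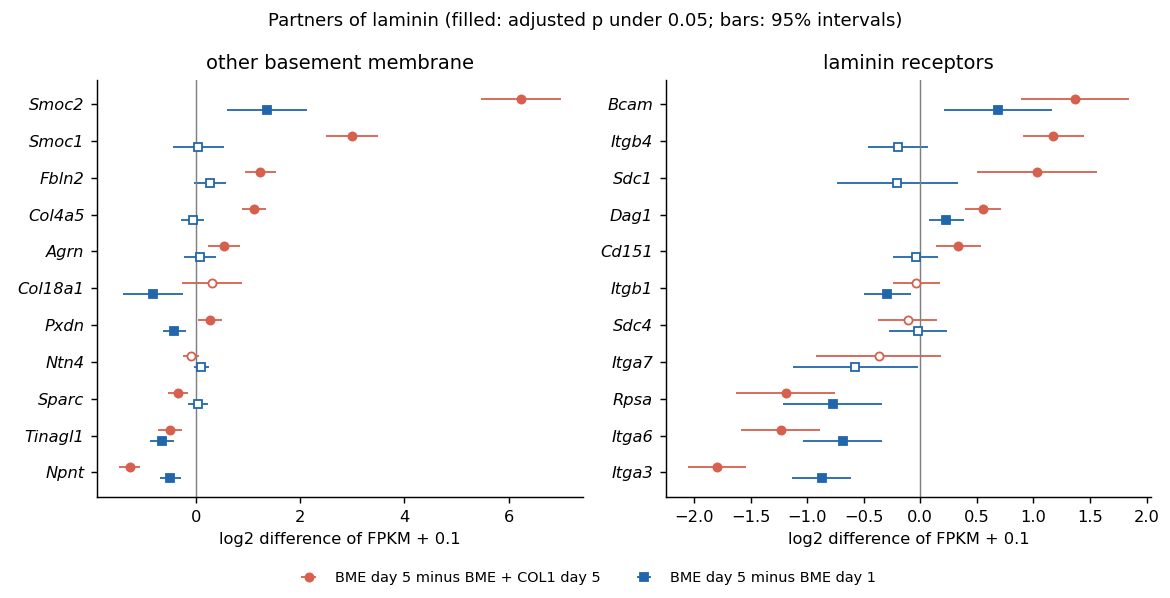
Log2 differences of FPKM + 0.1 with 95% intervals for the 11 tested genes of the basement membrane list and the 11 tested laminin receptor genes, for BME day 5 against BME + COL1 day 5 (circles) and against BME day 1 (squares), filled where the adjusted p was under 0.05. Smoc2 had the largest difference of the first list, at 6.23, and Itga3 the lowest of the second, at -1.80.

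The enzymes that add the laminin-binding sugar to dystroglycan showed no common direction. Of 13, 12 were tested, with 3 higher and 5 lower between BME day 5 and BME + COL1 day 5. Large, which extends the sugar, was higher (log2 0.99), as was Gtdc2 (0.49), while its paralogue Gyltl1b (-0.91) and Tmem5 (-0.66) were lower. From BME day 1 to BME day 5, 3 were higher, led by Large (0.41) and B3gnt1 (0.39), and 2 lower (Tmem5, -0.55, and B3galnt2, -0.43), and between BME + COL1 day 5 and BME day 1, 3 were higher, led by B3gnt1 and Gyltl1b (0.64 each), and 1 lower (Large, -0.57). The medians were -0.23, -0.03 and 0.10.

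Of 15 proteases that can process laminins 5 were tested, with 4 higher and 1 lower on BME day 5 than with COL1. Mmp3 averaged under 1 FPKM and was not tested. It had 0.942, 1.51 and 0.986 FPKM on BME day 5 and at most 0.0237 in any library of the other groups. The genes named next are from those tested. Bmp1, a metalloprotease of procollagens and laminins, was higher (log2 0.86), as was the plasminogen activator Plat (0.79), and the plasminogen activator Plau was lower (-1.50). From BME day 1 to BME day 5, 3 were higher, led by Plat (1.37) and Htra1 (0.54), and Plau was lower (-0.39). Between BME + COL1 day 5 and BME day 1 2 were higher (Plau, 1.11, and Plat, 0.58) and 2 lower (Bmp1, -0.99, and Mmp14, -0.40). The medians were 0.64, 0.24 and 0.01.

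All 10 genes for folding and oxidation in the endoplasmic reticulum, where laminin chains are joined, were tested. Of these, 9 were lower on BME day 5 than with COL1, led by the chaperones Hsp90b1 (log2 -1.47) and Hspa5 (-1.18), and the oxidase gene Ero1l had 0.05 (limma adjusted p = 0.678), with a list median of -0.80, against 45.3% lower and a median of -0.18 among all tested genes. Between the BME days 2 were lower (Pdia4, -0.51, and Ero1l, -0.36) and the others, all below 0, were not called, with a median of -0.27. Between BME + COL1 day 5 and BME day 1, 9 were higher, led by Hsp90b1 (1.02) and Calr (0.74), and Ero1l was lower (-0.41), with a median of 0.59.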

How the data were processed

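RNA was sequenced from 9 cultures of D2.0R cells, and the authors deposited FPKM per RefSeq transcript, 1 file a library, written by Cufflinks (version not given in the sources used here) after reads were trimmed and aligned. Per the submitters' processing notes the tools included TopHat2 2.0.8, Trimmomatic 0.30, CASAVA 1.8.4 and Partek, and the builds were mm9 and NCBIM37. The authors' test in Partek used alignments and could not be repeated from FPKM.

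Values of 30563 transcripts were added up within each gene. The 10497 genes that averaged 1 FPKM or more entered limma 3.58.1 (R 4.3.3) with an intensity trend on log2(FPKM + 0.1), with 3 group means fitted to the 9 libraries (6 residual degrees of freedom) and Benjamini-Hochberg adjustment within each comparison. Tests were two-sided. The fit was tested on simulated data. Chain shares and the least abundant chain of each trimer were compared by exact permutation tests (scipy 1.17.1). Tables and plots were made with pandas 2.3.3, numpy 2.4.6 and matplotlib 3.10.9.

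The members and lists were chosen with earlier results of these data known. Named were all 9 members, other laminin chains, up to 2 largest rises and 2 largest falls of each list in each comparison, and the 3 genes with the highest Pearson r to each tested member. The lists were further basement membrane genes, laminin receptors, dystroglycan glycosylation, laminin-processing proteases, folding in the endoplasmic reticulum, and markers of luminal, basal, endothelial, fibroblast, haematopoietic and parietal endoderm cells. Of the last 6, basal markers were under 1 FPKM in every library for 5 of 8 genes, haematopoietic markers for 5 of 7 in the files and parietal endoderm markers for 4 of 6 (Sparc and Gata4 exceeded it). Among basal markers Krt14 had 9.26 to 24.4 FPKM over the libraries, Acta2 had 3.28 to 3.58 with COL1 and at most 0.845 elsewhere, and Krt17 reached 1.03. Among haematopoietic markers Cd14 had 2.23 to 6.43 FPKM and Cd68 had 0.942 to 3.44. One laminin chain and the results that need it are not reported here. The printed windows, Mmp3 and the type IV collagen genes named with values were chosen after values were seen. Sequences were read from the NCBIM37 genome, the build of the files. The replicate letters were checked for pairing: deviations from group means of same-lettered libraries had correlations from -0.23 to 0.096. Per the labels the replicates are separate cultures by letter only, so p-values measure the spread between these libraries. The alternatives were other pseudocounts, filters, scalings, fits and thresholds, and leaving out each library.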

Additional observations from a re-analysis of the deposited data

How the results depend on the processing

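Calls of Lamb2, Lama3 and Lamc1 in the comparisons where they passed kept their direction and their side of the threshold under every alternative in which the gene was tested. A minimum mean of 5 FPKM leaves 5 of the members tested, without Lama3 and Hspg2, and then 2 members were higher and 1 lower between BME day 5 and BME + COL1 day 5, and 1 higher and 1 lower between the BME days. With TPM 5 members were higher between BME day 5 and BME + COL1 day 5, as with quantile normalization, and 5 lower between BME + COL1 day 5 and BME day 1, because Lama5, Lamb1 or Lamb3 were called too. Lamb3 was also gained as higher between BME day 5 and BME + COL1 day 5 with median-ratio scaling. The same held for a pseudocount of 0.01 and for the minimum mean of 5 FPKM. Between the BME days 1 member was lower in place of 2 with no filter, with only the 6 libraries compared, without the intensity trend and at an adjusted p of 0.01, since Lamb3 lost its call. The same held for the replicate block, which gave 1 member lower (Lamb3 -1.33, limma adjusted p = 0.0588). Hspg2 lost its lower call between BME + COL1 day 5 and BME day 1 with a pseudocount of 1, with median-ratio and quantile scaling and at an adjusted p of 0.01. The letters did not pair the libraries, and the block changed no other call of a member. Leaving out 1 library gave 1 to 3 members lower between the BME days, 2 to 3 higher and 2 to 3 lower between BME day 5 and BME + COL1 day 5, and 2 to 3 lower between BME + COL1 day 5 and BME day 1. Without replicate b of BME day 5, the library that stood apart, 3 were higher and 2 lower against BME + COL1 day 5, with Lamb3 gained.

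Differences near 0 turned their sign. For Lama5 the value became 0.22 with TPM and 0.25 with quantile normalization between BME day 5 and BME + COL1 day 5, 0.015 with quantile normalization between the BME days, and 0.002 with median-ratio scaling between BME + COL1 day 5 and BME day 1, where leaving out 1 library gave -0.047 to 0.015. For Lamb1 it became 0.31 with TPM, 0.053 with median-ratio scaling and 0.39 with quantile normalization in the first comparison, where leaving out 1 library gave -0.108 to 0.01, and 0.037, 0.030 and 0.099 between the BME days with the same 3 scalings. In the last comparison leaving out 1 library gave -0.099 to 0.002 for Lamb1. Rescaling to TPM divides each value by the summed FPKM of its library. That sum was 417944 to 423289 with COL1, 287611 to 364146 on BME day 5 and 351652 to 367000 on BME day 1. The cause of the turned signs was not tested.

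Added after seeing the data, rescaling Lama3 to its shortest coding form put the least abundant chain of LM311 at 10.4 FPKM on BME day 1, 3.29 on BME day 5 and 8.87 on BME + COL1 day 5, and the Lama5 share of alpha chain FPKM at 75.4%, 88.8% and 69.9%. The ratio of Lama3 to Lamb3 became 0.322, 0.257 and 1.39. Taking the most abundant transcript is no check of the members, which have 1 transcript each. Depth limits Lama1 and Nid1, whose intervals reach 0.00987 and 0.021 FPKM.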
